A study of Homo sapiens with 132 samples.

Results

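The genes described here code for 8 proteins that cells secrete: ESM1, PTHLH, VEGFA, STC1, STC2, INHBA, INHBB and ANGPTL4. Their rows were taken by Ensembl identifier from the deposited counts of each library, 8 of 65217 identifiers. ESM1 and PTHLH were selected on the log2 fold change (log2FC) of EGF-treated against untreated MKN1 cells at 4 h, which was among the largest of all genes. All values from the EGF libraries of MKN1 cells are therefore a description with no test. The other 6 genes were listed beside them with earlier results of these data known. RNA was sequenced from 4 gastric cancer cell lines, named Hs746T, MKN1, MKN7 and NCI-N87, with 3 replicates, described as biological triplicates, for each of 44 conditions. MKN1 and Hs746T cells were left untreated or received EGF (5 ng/ml), cetuximab (Cet, 1 µg/ml), EGF + Cet, trastuzumab (Tra, 5 µg/ml), afatinib (Afa, 0.5 µM) or Tra + Afa, each for 4 h or 24 h. The designs of NCI-N87 and MKN7 held the untreated, Tra, Afa and Tra + Afa conditions at the same times. All groups grew in medium with foetal calf serum, RPMI for MKN1, MKN7 and NCI-N87 and DMEM for Hs746T cells, and the medium was changed 2 h before treatment. The untreated cells are the control of every treatment, afatinib included, because no libraries with the afatinib solvent were analysed here. Each line is a single established cell line from a metastasis of a gastric carcinoma.

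EGF binds the receptor EGFR on the cell surface, which starts the MAP kinase cascade and, through it, transcription of a set of early genes and of genes for secreted proteins. Cetuximab is an antibody that blocks EGFR, trastuzumab is an antibody against the related receptor HER2, and afatinib is a small molecule that inhibits the kinases of EGFR and HER2. ESM1 (endocan) is a secreted proteoglycan known from endothelial cells and from tumours. PTHLH codes for parathyroid hormone-related protein, which acts on the parathyroid hormone receptor and is known for hypercalcaemia in cancer. VEGFA is the main growth factor of blood vessels. STC1 and STC2 are stanniocalcins, glycoprotein hormones that act near the cells that make them and are linked to calcium and phosphate balance and to cell stress. INHBA and INHBB code for the beta subunits that pair to activins A and B, or with the alpha subunit to inhibins, in the TGF-beta family. ANGPTL4 is an inhibitor of lipoprotein lipase and is induced by fasting and hypoxia in many tissues.

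The promoters of ESM1 and PTHLH are shown because these 2 genes were selected on the EGF response. Each stretch is the 100 bases before the RefSeq transcription start (GRCh38.p14, minus strand, written 5′ to 3′), and capitals mark the motifs that were searched.
ESM1, chr5:54985594-54985693: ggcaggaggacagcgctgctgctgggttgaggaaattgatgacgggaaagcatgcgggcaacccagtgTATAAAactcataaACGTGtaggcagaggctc
PTHLH, chr12:27969977-27970076: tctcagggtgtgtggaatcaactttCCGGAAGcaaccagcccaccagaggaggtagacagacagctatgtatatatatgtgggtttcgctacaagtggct

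Searched on either strand were the AP-1 motif, written TGANTCA, the cyclic AMP response motif, written TGACGTCA, the ETS motif, written CCGGAAG, the core of a hypoxia response element, written ACGTG, and the TATA box, written TATAAA, none of which contains another. The window searched ran from 250 bases before to 50 bases after the start. The ESM1 window held TATAAA with its first base at -32 and ACGTG at -18, and the PTHLH window held CCGGAAG at -75, counted from the start site. Of 35116 promoters of the same length, 11.5% held the TATA box, 21.4% the hypoxia core, 10.3% the ETS motif, 7.71% the AP-1 motif and 1.85% the cyclic AMP response motif. Neither window held the latter 2. INHBA had TATAAA at -11, ANGPTL4 had TATAAA at -29 and ACGTG at -234, and the windows of STC2 and INHBB held none of the motifs. No promoter of VEGFA or STC1 was used here. Both stretches lie inside the gene spans of the GENCODE annotation used here, since ESM1 (ENSG00000164283, minus strand) covers 54977864 to 55022671 on chromosome 5 and PTHLH (ENSG00000087494, minus strand) covers 27958084 to 27972705 on chromosome 12 of GRCh38, and other annotated transcripts start further upstream.

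Of the other genes, VEGFA (ENSG00000112715) lies on chromosome 6 from 43770184 to 43786487, STC1 (ENSG00000159167) on chromosome 8 from 23841915 to 23854807 and STC2 (ENSG00000113739) on chromosome 5 from 173314713 to 173329503. INHBB (ENSG00000163083) lies on chromosome 2 from 120346143 to 120351808, INHBA (ENSG00000122641) on chromosome 7 from 41667168 to 41705834 and ANGPTL4 (ENSG00000167772) on chromosome 19 from 8363289 to 8374373. Antisense genes overlap PTHLH (AC008011.2), VEGFA (AL136131.3), INHBA (INHBA-AS1) and ANGPTL4 (RAB11B-AS1), and AC034238.1 overlaps ESM1 on the same strand. The library kit keeps the strand, but whether the counting used it is not given in the sources used here.

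The libraries held 25832557 to 69434151 counts, and 3 counts, the smallest level taken as detected, correspond to 0.0432 to 0.116 CPM (counts scaled to a common library total), which covers counting error only. Summed epithelial markers (8 genes) ranged from 4515 to 26230 CPM in MKN1, MKN7 and NCI-N87 and from 723 to 1052 in Hs746T libraries, in which 7 mesenchymal markers summed to 3615 to 6196 CPM. CDH1, the epithelial cadherin, had a mean of 2.02 CPM in untreated MKN1 and 0.821 in untreated Hs746T cells, against 259.9 in MKN7 and 268.5 in NCI-N87 cells. Since ESM1 is known from endothelial cells, 8 endothelial markers were summed too, and they stayed at or below 32.8 CPM in MKN1, MKN7 and NCI-N87. The sum reached 83.4 to 276.5 CPM in Hs746T libraries, where PECAM1 alone had an untreated mean of 166.0, while CDH5 (0.0365) and KDR (0.0575) were at or below the floor. The summed leukocyte markers (6 genes) did not exceed 9.75 CPM in any line. Libraries with the same replicate number stood apart: PTHLH, STC1, STC2 and INHBB were highest in replicate 1 in 8 of 8 conditions of NCI-N87, PTHLH, STC1 and STC2 in 14 of 14 of Hs746T, and INHBB in 14 of 14 of MKN1 cells. The mesenchymal sum was 4567 to 6196 CPM in replicate 1 of Hs746T cells against 3615 to 4688 in the others, and its part in these values was not tested. The sample numbers in the labels form 2 series, of 65 and 67 libraries, and restart at untreated Hs746T replicate 2 at 24 h. What the series stand for is not given in the sources used here, and their part was not tested either.

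INHBA and ANGPTL4 were listed at 0 counts in every library. The same held for 1970 of 19674 protein-coding genes (10.0%), among them RPL32, RPL15, RPS4X and RPS28, which code for ribosomal proteins that every cell makes. ANGPTL4 lies in a run of 11 neighbouring protein-coding genes at 0, RAB11B included. INHBA-AS1, the antisense gene that overlaps INHBA, had 4321 counts in all. The levels of INHBA and ANGPTL4 are therefore not known from these counts, and 6 of the 8 genes could be tested.

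The untreated cell lines differed widely in these genes. ESM1 was highest in Hs746T, PTHLH and INHBB were highest in MKN1, STC1 was highest in Hs746T and then MKN7, and STC2 was high in MKN1 and Hs746T cells. The levels below are CPM after TMM normalization over all libraries, and lines were compared by the mean of untreated cells at 4 h and 24 h in edgeR's quasi-likelihood test with Benjamini-Hochberg adjustment. A gene was called regulated at an adjusted p below 0.05 with a log2FC above 1 or below -1. Among all genes tested, 41.4% were called between MKN1 and MKN7, 45.9% between MKN1 and NCI-N87, 47.8% between MKN1 and Hs746T, 44.4% between MKN7 and NCI-N87, 45.9% between MKN7 and Hs746T and 49.1% between NCI-N87 and Hs746T. In the same order, 6, 4, 5, 4, 5 and 5 of the 6 tested members were called. In bulk samples, fewer cells that express a gene and less RNA per cell cannot be told apart.

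In untreated Hs746T cells ESM1 had a lowest level of 277.9, a median of 297.6 and a highest level of 322.5 CPM over 6 libraries. MKN7 cells had 1.87, 11.2 and 16.3 CPM, MKN1 cells 0.279, 1.84 and 4.46 and NCI-N87 cells 0.906, 1.88 and 3.62. Every Hs746T library lay above every library of the other lines. MKN7 exceeded MKN1 by 2.26 on the log2 scale (SE 0.35, adjusted p = 1.27e-08), while MKN1 and NCI-N87 differed by -0.10 (95% interval -0.86 to 0.66, adjusted p = 0.828). For PTHLH, the calcium-regulating peptide, untreated MKN1 cells had 20.9, 59 and 96.1 CPM. The untreated means of the other lines were 3.48 CPM in Hs746T, 1.38 in MKN7 and 0.446 in NCI-N87, and each neighbouring pair in this order differed (MKN1 against Hs746T 3.79, MKN7 against Hs746T -1.36, MKN7 against NCI-N87 1.60, the largest adjusted p being 0.000218).

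VEGFA was well detected in all 4 lines. Its untreated mean was 177.9 ± 24.5 CPM in MKN7, 164.9 ± 8.13 in Hs746T, 52.1 ± 6.40 in MKN1 and 44.9 ± 9.77 in NCI-N87 cells (SD, n = 6). MKN7 and Hs746T differed by 0.11 (95% interval -0.09 to 0.31, adjusted p = 0.319), and MKN1 exceeded NCI-N87 by 0.23 (adjusted p = 0.0333), which is under the fold limit. STC1 had a mean of 91.0 CPM in Hs746T and 45 in MKN7, but 1.18 in MKN1 and 0.194 in NCI-N87 cells. Hs746T exceeded MKN7 in STC1 with a log2FC of MKN7 against Hs746T of -1.01 (adjusted p = 4.86e-05), which was -0.97 with the replicate number as a block, -0.57 without replicate 1 and -1 without replicate 2. STC2 had means of 71.8 ± 12.9 CPM in Hs746T and 70.1 ± 18.9 in MKN1 cells, a log2FC of MKN1 against Hs746T of -0.04 (95% interval -0.48 to 0.39), and means of 0.645 CPM in MKN7 and 0.385 in NCI-N87. MKN7 and NCI-N87 were not told apart in STC2 (0.72, adjusted p = 0.110), but were called with the block (1.22, adjusted p = 2.48e-07) and without replicate 1 (2.14). The block was set within line and time and pairs no libraries of different lines. Blocked p-values between untreated lines therefore leave out the spread between replicates. INHBB, the activin beta B subunit, had 66.1 ± 20.5 CPM in MKN1 cells and means of 0.324 in Hs746T, 0.998 in MKN7 and 0.535 in NCI-N87. MKN7 exceeded NCI-N87 in INHBB by 0.92 (adjusted p = 0.00498), by 1.04 with the block and by 1.35 without replicate 1, and NCI-N87 against Hs746T had a log2FC of 0.74 (adjusted p = 0.0616; 1.07 without replicate 2).

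Scaled per kilobase of exon sequence, levels can be set side by side between genes. The exon sequence is the union over all annotated transcripts, 14431 bases for VEGFA against 2482 to 8302 for the other 7 genes, so a long union lowers the value of VEGFA and its place below another gene is not given. In untreated Hs746T cells ESM1 had 111.8 CPM per kb, against 21.9 for STC1 and 11.7 for STC2, and VEGFA had 11.4. In untreated MKN1 cells INHBB (20.6), PTHLH (17.2) and STC2 (11.4) lay above ESM1 (0.800) and STC1 (0.285), and VEGFA had 3.61. VEGFA (12.3) and STC1 (10.8) led in MKN7 and VEGFA (3.11) in NCI-N87 cells.

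**Figure D1:**
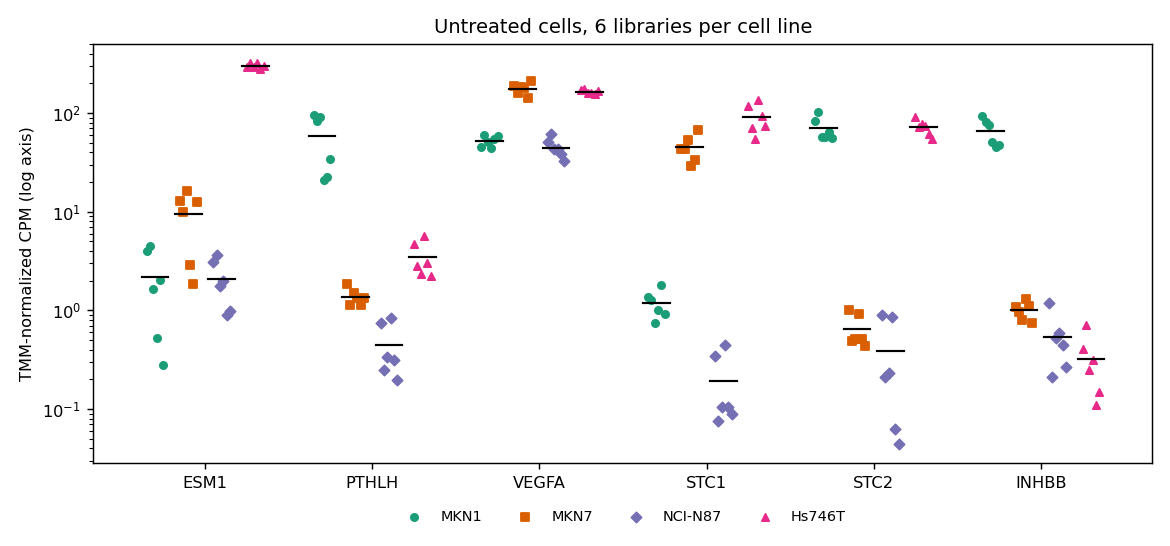
Levels of the 6 detected genes in untreated cells, in TMM-normalized CPM on a log axis, with 6 libraries per cell line (3 at 4 h and 3 at 24 h) as points and their mean as a bar. ESM1 in Hs746T cells lies between 277.9 and 322.5 CPM, above all libraries of the other lines, and INHBB in MKN1 cells between 45.2 and 93.6.

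Some of these genes drifted in untreated MKN1 cells between 4 h and 24 h. PTHLH was 96.1, 83.4 and 91.6 CPM in replicates 1 to 3 at 4 h and 20.9, 22.3 and 34.6 at 24 h, so the groups did not overlap. It fell by 1.82 on the log2 scale (SE 0.19, adjusted p = 7.8e-09). INHBB fell by 0.83 (adjusted p = 2.88e-05), and ESM1 fell by 1.84 (SE 0.67, adjusted p = 0.0322), although its ranges overlapped and the value was -1.39 (adjusted p = 0.328) without replicate 1. Here 8.06% of all genes were regulated, and so were 2 of the 6 members. These untreated libraries also stand in the contrast for which ESM1 and PTHLH were chosen. No member was regulated between the times in the other lines, where 0.129% of genes were in Hs746T, 1.76% in MKN7 and 0.0472% in NCI-N87 cells. Members at an unadjusted p below 0.05 were ESM1 in MKN7 (log2FC -1.22), ESM1 (-1.11) and VEGFA (-0.42) in NCI-N87 and STC2 (-0.32) in Hs746T cells, and DESeq2 called 0 members as well. With the replicate block, ESM1 fell in MKN7 (-1.53, adjusted p = 0.00155) and NCI-N87 cells (-1.12, adjusted p = 0.0105) and INHBB in Hs746T cells (-1.22, adjusted p = 0.0244). The block was set within line and time and pairs no 4 h library with a 24 h one. These blocked p-values therefore leave out the spread between replicates. In MKN7 cells ESM1 was also called without replicate 3 (-2.28, adjusted p = 0.0182), the replicate whose 24 h library stood apart.

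EGF-treated MKN1 cells had the high levels for which ESM1 and PTHLH were chosen. ESM1 at 4 h was 4.00, 4.46 and 1.64 CPM in untreated replicates 1 to 3 and 30.2, 32.2 and 12.1 CPM after EGF, a log2FC of 2.89 (SE 0.60). Replicate 3 was the lowest in both groups, and the groups did not overlap. At 24 h it was 0.523, 2.05 and 0.279 CPM in untreated and 8.28, 7.73 and 4.19 CPM in EGF-treated cells, a log2FC of 2.83 (SE 0.66). PTHLH at 4 h was 521.7, 402.7 and 345.6 CPM after EGF against the untreated values above, a log2FC of 2.24 (SE 0.19). At 24 h it was 127.6 CPM in replicates 1 and 2 and slightly higher in replicate 3 (mean 129.1 ± 2.52, n = 3), a log2FC of 2.33 (SE 0.19), with a lower untreated level than at 4 h. With cetuximab added to EGF, ESM1 had a mean of 9.32 CPM at 4 h and 1.82 at 24 h, and PTHLH had 211.7 and 60.2 CPM. EGF + Cet against EGF gave -1.41 (SE 0.56) for ESM1 and -1 (SE 0.18) for PTHLH at 4 h, and -1.90 (SE 0.62) and -1.11 (SE 0.19) at 24 h. By their means both genes thus lay between the untreated and the EGF level in EGF + Cet cells. For ESM1 at 24 h the ranges of EGF + Cet and untreated libraries overlapped.

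**Figure D2:**
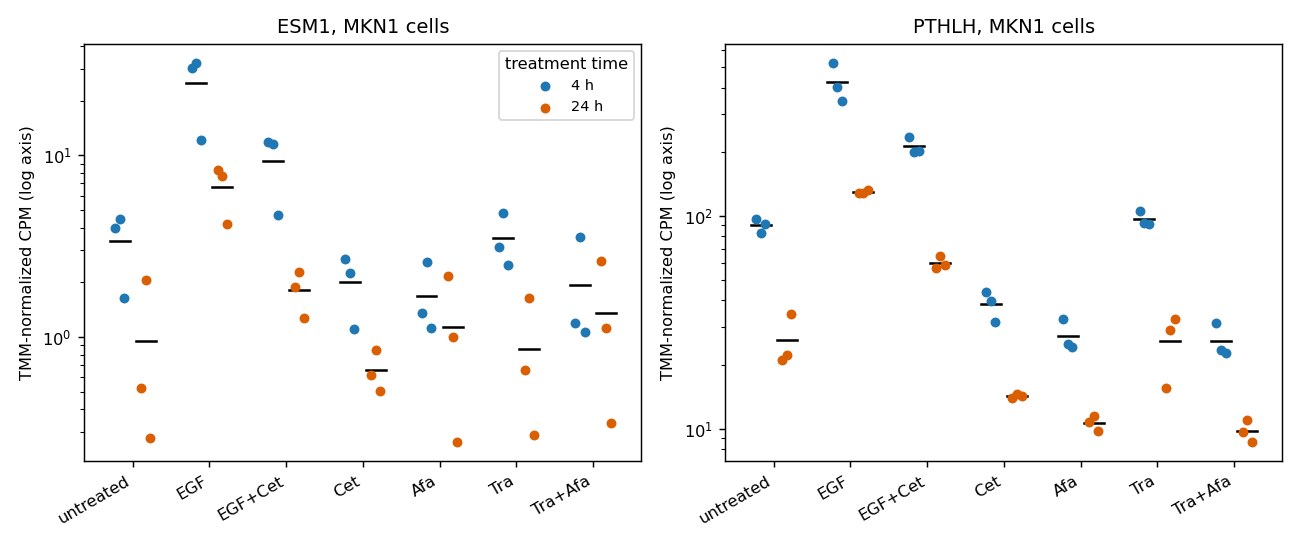
ESM1 and PTHLH in MKN1 cells under the 7 treatments, in TMM-normalized CPM on a log axis, with 3 replicates as points (replicate 1 to 3 from left to right) and their mean as a bar for 4 h and 24 h. The EGF libraries are highest, PTHLH with means of 423.3 CPM at 4 h and 129.1 at 24 h, and the afatinib libraries of PTHLH lie below the untreated ones at both times.

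The other detected members had smaller values in the same EGF libraries. STC1 had a mean of 1.13 ± 0.340 CPM in untreated and 3.48 ± 0.374 CPM in EGF-treated MKN1 cells at 4 h (SD, n = 3), a log2FC of 1.62 (SE 0.34), and 1.24 and 2.27 CPM at 24 h, a log2FC of 0.88. VEGFA went from 51.8 ± 7.19 to 89.6 ± 10.5 CPM at 4 h (0.80) and from 52.3 to 72.5 CPM at 24 h (0.49). INHBB had log2FC values of 0.42 and 0.16 and STC2 of -0.30 and 0.50 at the respective times. The ranges of treated and untreated libraries overlapped for INHBB at both times and for STC2 at 4 h.

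Whether EGF moved these genes could be tested in other libraries, by comparing EGF + Cet with Cet. PTHLH and ESM1 rose there as well at 4 h. PTHLH was 44, 39.6 and 31.6 CPM with Cet and 234.6, 199.1 and 201.6 CPM with EGF + Cet at 4 h, a rise of 2.48 (SE 0.19, adjusted p = 4.04e-11). The groups were far apart. ESM1 was 2.69, 2.25 and 1.12 CPM with Cet and 11.8, 11.5 and 4.67 CPM with EGF + Cet, a rise of 2.23 (SE 0.61, adjusted p = 0.0142), which did not pass without replicate 1 (2.29, adjusted p = 0.172) or without replicate 2 (2.13, adjusted p = 0.0843). VEGFA rose by 0.86 (adjusted p = 0.000333), under the fold limit. The log2FC of STC1 (0.62, adjusted p = 0.302), STC2 (0.30, adjusted p = 0.519) and INHBB (0.40, adjusted p = 0.0696) did not pass. With the replicate block all 6 members rose at an adjusted p below 0.05. In that fit 23.1% of all genes passed in either direction, against 10.6% without the block. The members called regulated did not change. At 4 h, 2 of the 6 members were regulated, where 2.18% of all genes were.

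At 24 h EGF + Cet against Cet regulated 13.3% of all genes and 3 of the 6 members. PTHLH was 13.9, 14.5 and 14.3 CPM with Cet and 56.8, 64.8 and 59 CPM with EGF + Cet, a rise of 2.11 (SE 0.20, adjusted p = 2.48e-10). STC2 was 39.7 ± 7.52 CPM with Cet and 88.3 ± 12.7 CPM with EGF + Cet (SD, n = 3), and it rose by 1.18 (SE 0.24, adjusted p = 0.000128). VEGFA was 33.3 ± 3.19 CPM with Cet and 65.9 ± 7.29 CPM with EGF + Cet, and it rose by 1.01 (SE 0.16, adjusted p = 4.8e-06). STC2 and VEGFA were under the fold limit, with 0.97 and 0.80, when only the library size was scaled, and VEGFA also with 0.96 without replicate 1 and 0.99 without replicate 2. ESM1 was 0.622, 0.848 and 0.504 CPM with Cet and 1.90, 2.29 and 1.27 CPM with EGF + Cet. Its groups did not overlap, and its log2FC of 1.48 missed the test (SE 0.71, adjusted p = 0.0853) but passed with the replicate block (1.51, adjusted p = 0.00432). STC1 (0.04, 95% interval -0.66 to 0.73) and INHBB (0.07, 95% interval -0.22 to 0.36) did not pass.

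Cetuximab alone lowered PTHLH in MKN1 cells. At 4 h PTHLH fell by 1.24 (SE 0.19, adjusted p = 9.47e-05), from a mean of 90.4 ± 6.46 to 38.4 ± 6.27 CPM (SD, n = 3), and it was the 1 member regulated of 6, where 0.333% of all genes were. At 24 h PTHLH fell by 0.89 (adjusted p = 0.00276; -1.01 without replicate 1) and VEGFA by 0.67 (adjusted p = 0.00639), and 0 members were regulated against 1.33% of genes. At that time 3 members had an unadjusted p below 0.05, and DESeq2 called 0 as well. ESM1 had a log2FC of -0.76 at 4 h (95% interval -2.03 to 0.51) and -0.54 at 24 h (95% interval -2.08 to 1.0). The untreated libraries used here are those of the EGF contrast.

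Afatinib lowered PTHLH in MKN1 cells as well. PTHLH at 4 h was 32.8, 24.9 and 24.2 CPM with Afa, and it fell by 1.74 (SE 0.19, adjusted p = 1.96e-07) against untreated cells, where 0.681% of genes were regulated. Tra + Afa against Tra repeats the comparison in separate libraries. PTHLH was 105.7, 92.1 and 91.7 CPM with Tra and 31.4, 23.3 and 22.6 CPM with Tra + Afa, a log2FC of -1.92 (SE 0.19, adjusted p = 5.1e-08), where 0.631% of genes were regulated. At 24 h PTHLH fell by 1.30 (adjusted p = 8.35e-06; -0.97 without replicate 3) in Afa against untreated and by 1.43 (adjusted p = 2.18e-06) in Tra + Afa against Tra cells, with 4.19% and 4.22% of all genes regulated. In each of the 4 comparisons PTHLH was the only regulated member of 6. At 24 h VEGFA fell by 0.69 (adjusted p = 0.00165) and 0.56 (adjusted p = 0.00835), and STC2 by 0.67 (adjusted p = 0.0336) and 0.65 (adjusted p = 0.0375), all under the fold limit.

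ESM1 in MKN1 cells did not pass the test with afatinib. Its replicates were 1.37, 2.58 and 1.13 CPM with Afa at 4 h (log2FC -1.01, 95% interval -2.29 to 0.27) and 2.16, 1.00 and 0.264 CPM at 24 h (0.26, 95% interval -1.19 to 1.71). With Tra + Afa against Tra the values were -0.87 and 0.64 (adjusted p = 0.639 and 0.544). The 3 afatinib replicates at 24 h were far apart, and all ranges overlapped. STC1 and INHBB did not pass either, with log2FC values of -0.30 and 0.59 for STC1 and -0.32 and -0.02 for INHBB in Afa against untreated cells at 4 h and 24 h. These results are without the replicate block. With it, 4 of the 6 members fell at 4 h, and 1 rose and 3 fell at 24 h, at an adjusted p below 0.05. In that fit 13.2% and 42.2% of all genes passed in either direction. The block changed no call of regulation here.

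In MKN7 cells afatinib lowered ESM1 and STC1 at both times, INHBB at 4 h and VEGFA at 24 h. At 4 h ESM1 was 12.8, 9.99 and 16.3 CPM in untreated and 4.17, 3.10 and 3.40 CPM in Afa cells, a log2FC of -1.91 (SE 0.59, adjusted p = 0.0222). STC1 was 42.9, 43.6 and 54 CPM in untreated and 18.9, 19 and 13.9 CPM in Afa cells, a log2FC of -1.48 (SE 0.25, adjusted p = 0.000192). INHBB was 1.08, 0.973 and 0.793 CPM in untreated and 0.647, 0.207 and 0.2 CPM in Afa cells, a log2FC of -1.47 (SE 0.36, adjusted p = 0.00479). For all 3 genes the groups did not overlap, and 3.40% of genes were regulated. Tra + Afa against Tra gave -1.86 for ESM1 (adjusted p = 0.0295), -1.27 for STC1 (adjusted p = 0.000942) and -1.41 for INHBB (adjusted p = 0.00642), the same 3 members, with 2.96% of genes regulated. The call of ESM1 was lost without any 1 replicate, with -2.04, -1.99 and -1.67 without replicates 1, 2 and 3 in Afa against untreated cells (lowest adjusted p = 0.0587) and -2.06, -1.80 and -1.73 in Tra + Afa against Tra cells (lowest adjusted p = 0.051). INHBB was lost without replicate 2 in the former (-1.18, adjusted p = 0.132) and without replicate 1 in the latter comparison (-1.23, adjusted p = 0.0575).

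At 24 h afatinib regulated 13.5% of all genes in MKN7 cells and 3 of the 6 members. VEGFA was 179.9, 142.5 and 213.5 CPM in untreated and 102.0, 70.3 and 77.2 CPM in Afa cells, a log2FC of -1.11 (SE 0.18, adjusted p = 2.42e-05). STC1 was 29, 33.1 and 67.2 CPM in untreated and 13.7, 13.4 and 9.23 CPM in Afa cells, a log2FC of -1.84 (SE 0.26, adjusted p = 5.12e-06). ESM1 was 2.91, 1.87 and 12.5 CPM in untreated and 2.04, 0.302 and 0.396 CPM in Afa cells, a log2FC of -2.70 (SE 0.67, adjusted p = 0.00197) with overlapping ranges. Untreated replicate 3 was the highest for all 3 genes, and without replicate 3 the values were -1.09 for ESM1 (adjusted p = 0.199) and -0.93 for VEGFA (adjusted p = 0.00488), so that STC1 alone was regulated. VEGFA was -0.99 when only the library size was scaled. INHBB had a mean of 1.05 ± 0.287 CPM in untreated and 1.15 ± 0.148 in Afa cells at 24 h (log2FC 0.13, 95% interval -0.50 to 0.76).

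Tra + Afa against Tra at 24 h regulated 9.70% of genes and 2 members in MKN7 cells. VEGFA fell by 1.00 (SE 0.18, adjusted p = 0.000112) and STC1 by 1.24 (SE 0.25, adjusted p = 0.000501). Without replicate 3 these were -0.86 (adjusted p = 0.00994) and -0.90 (adjusted p = 0.000111), under the fold limit. VEGFA was also under the limit with -0.89 when only the library size was scaled. ESM1 was 2.35, 1.01 and 4.71 CPM with Tra and 1.58, 0.450 and 0.568 CPM with Tra + Afa, with a log2FC of -1.66 (adjusted p = 0.0569) that passed with the block (-1.60, adjusted p = 0.0114) and without replicate 1 (-2.49, adjusted p = 0.0435). PTHLH in MKN7 cells kept to 0.908 to 1.84 CPM over all 24 libraries, and its afatinib log2FC values were 0.12 at 4 h (95% interval -0.34 to 0.57) and -0.10 at 24 h (95% interval -0.56 to 0.36). STC2 did not pass in any of these comparisons.

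In NCI-N87 cells afatinib lowered ESM1 at both times and raised INHBB at 24 h. At 4 h ESM1 was 3.08, 3.62 and 1.77 CPM in untreated and 1.76, 0.998 and 0.816 CPM in Afa cells, a log2FC of -1.24 (SE 0.42, adjusted p = 0.0442), with 3.24% of genes regulated. In Tra + Afa against Tra cells it fell by 1.28 (adjusted p = 0.0375), with 4.00% of genes regulated. ESM1 was the 1 regulated member of 6 in each. Either call was lost without replicate 2 (-0.92 and -0.87) or without replicate 3 (-1.30 and -1.38), and the former also when only the library size was scaled (-1.18, adjusted p = 0.0634).

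At 24 h INHBB was 0.584, 0.442 and 0.265 CPM in untreated and 2.25, 1.42 and 2.17 CPM in Afa cells of NCI-N87, a rise of 2.13 (SE 0.62, adjusted p = 0.00498). With Tra it was 0.884, 0.363 and 0.249 CPM and with Tra + Afa 2.43, 1.60 and 1.53 CPM, a rise of 1.89 (SE 0.62, adjusted p = 0.0113). The groups did not overlap in either comparison, and without replicate 3 the values were 1.81 (adjusted p = 0.0825) and 1.70 (adjusted p = 0.1). INHBB is on a list of apoptosis genes that the study drew up from the same afatinib libraries, so this direction is not independent evidence. ESM1 was 1.98, 0.906 and 0.994 CPM in untreated and 0.489, 0.249 and 0.453 CPM in Afa cells, a log2FC of -1.74 (SE 0.48, adjusted p = 0.00357). In Tra + Afa against Tra cells ESM1 fell by 1.22 (adjusted p = 0.0472), a call lost without replicate 2 (-0.64) or 3 (-1.56) and when only the library size was scaled (-0.95, adjusted p = 0.121).

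VEGFA fell in NCI-N87 cells at 24 h, from 38.2 ± 5.07 to 22.5 ± 4.82 CPM with Afa (SD, n = 3), by 0.79 (adjusted p = 4.35e-05), and by 0.84 (adjusted p = 2.47e-05) in Tra + Afa against Tra cells. Both are under the fold limit, and at 4 h the log2FC values were 0.01 and -0.03. STC1 was called in Tra + Afa against Tra cells at 24 h (fitted log2FC -1.97, adjusted p = 0.0321), where its levels with Tra + Afa were 0.189, 0.0420 and 0.0391 CPM. In replicates 2 and 3 these lie below the floor of 3 counts (0.0750 and 0.0677 CPM), so STC1 was not detected there. The call was lost without replicate 2 (-1.53) or 3 (-1.94) and by library size alone (-1.69). In Afa against untreated cells the log2FC of STC1 was -0.68 (adjusted p = 0.456). In all, 2 of 6 members were regulated in Afa against untreated cells and 3 of 6, STC1 included, in Tra + Afa against Tra cells at 24 h, where 29.6% and 28.2% of all genes were, so the counts alone do not set the members apart. PTHLH and STC2 stayed at or below 2.03 CPM in all NCI-N87 libraries, and their afatinib intervals were wide (PTHLH at 24 h -0.02, 95% interval -1.57 to 1.53).

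**Figure D3:**
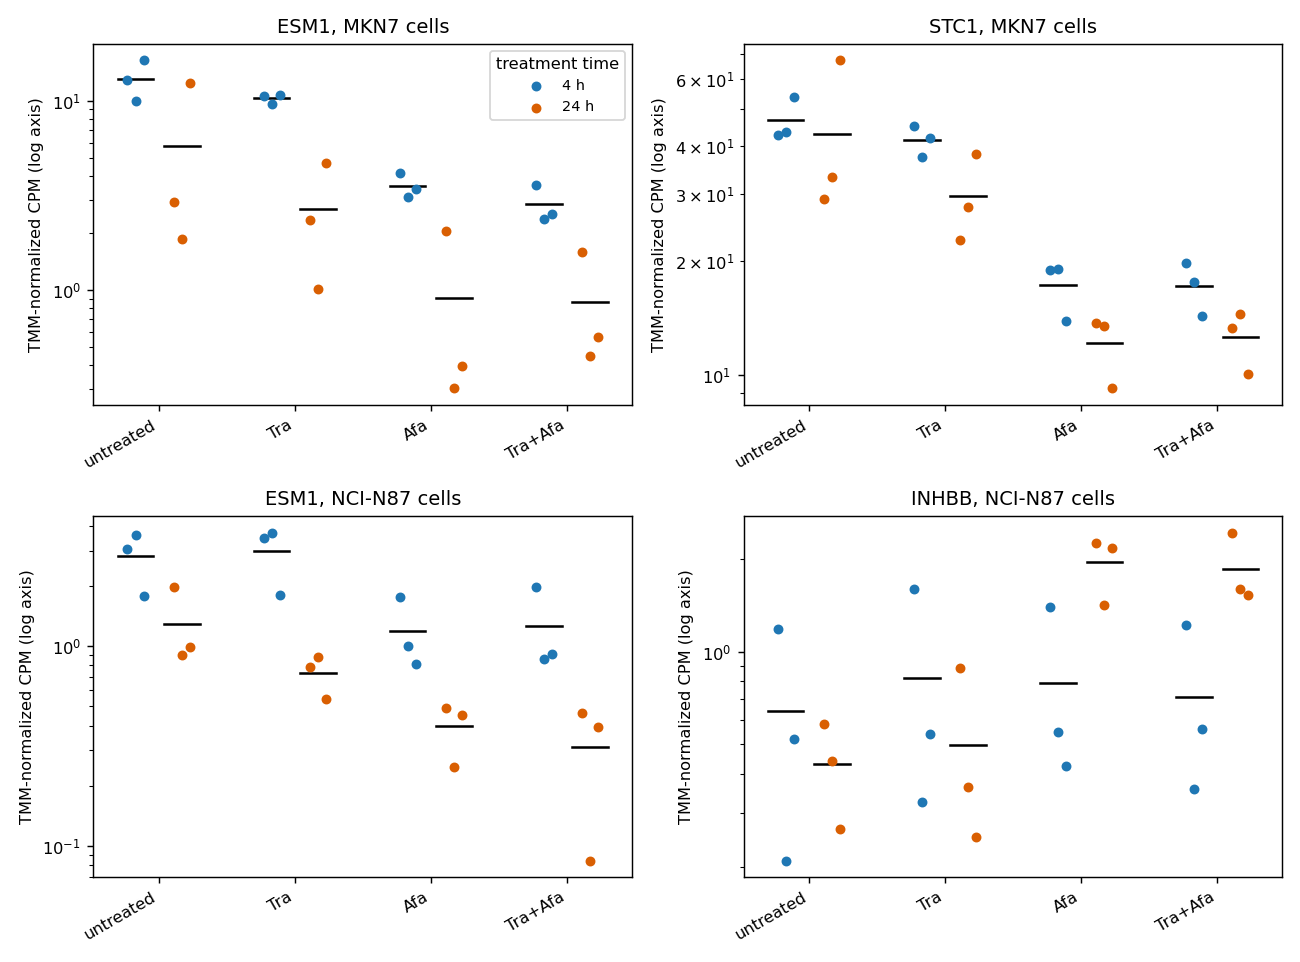
ESM1 and STC1 in MKN7 and ESM1 and INHBB in NCI-N87 cells by treatment, in TMM-normalized CPM on a log axis, with 3 replicates as points (replicate 1 to 3 from left to right) and their mean as a bar for 4 h and 24 h. Untreated MKN7 replicate 3 at 24 h stands apart (ESM1 12.5 and STC1 67.2 CPM), and the INHBB libraries of NCI-N87 cells with Afa or Tra + Afa at 24 h lie at or above 1.42 CPM.

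In Hs746T cells 0 of the 6 members were regulated by EGF, Cet, Afa, Tra or Tra + Afa at either time, as were 0% of all genes in each of these comparisons. With the replicate block 0.354% of all genes were regulated by Afa at 4 h, and still 0 members. At an unadjusted p below 0.05, edgeR listed 1 member after EGF at 4 h, 2 after Afa at 24 h and 1 in Tra + Afa against Tra cells at 24 h, and DESeq2 called 0 as well. ESM1, the most abundant member here, was 290.8, 322.5 and 295.2 CPM in untreated and 317.3, 380.2 and 374.9 CPM in EGF-treated cells at 4 h. Its log2FC of 0.26 (95% interval 0.07 to 0.45, adjusted p = 1) did not pass, and the ranges overlapped. With Afa it was 0.10 at 4 h (95% interval -0.10 to 0.29) and -0.09 at 24 h (95% interval -0.28 to 0.11). VEGFA at 24 h was 160.0, 155.1 and 166.5 CPM in untreated and 146.7, 143.2 and 133.3 CPM in Afa cells, groups that did not overlap, with a log2FC of -0.19 (95% interval -0.33 to -0.06, adjusted p = 1). PTHLH after EGF was 0.25 at 4 h (95% interval -0.78 to 1.28) and -0.11 at 24 h (95% interval -1.15 to 0.92).

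Trastuzumab against untreated regulated 0 of the 6 members and 0% of all genes in each of the 4 lines at 4 h and at 24 h, and 1 member, STC1 in MKN7 cells at 24 h (log2FC -0.54), had an unadjusted p below 0.05. DESeq2 called 0 members too. In NCI-N87 cells at 24 h ESM1 was 0.783, 0.880 and 0.544 CPM with Tra, below all 3 untreated libraries, with a log2FC of -0.83 (95% interval -1.78 to 0.13, adjusted p = 1). In MKN7 cells at 24 h ESM1 had -1.09 (95% interval -2.34 to 0.16, adjusted p = 0.999).

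**Figure D4:**
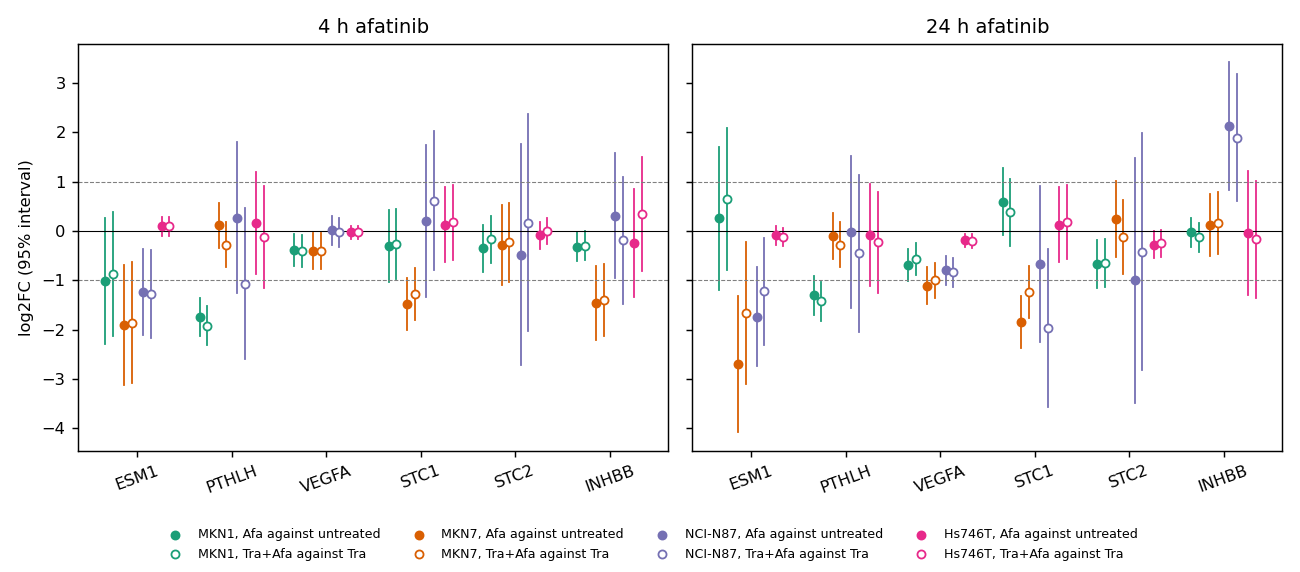
Log2FC with 95% intervals of the 6 detected genes after afatinib in 4 cell lines at 4 h and 24 h, for Afa against untreated (filled) and Tra + Afa against Tra (open), with dashed lines at 1 and -1. PTHLH lies low in MKN1 cells (-1.74 and -1.92 at 4 h), ESM1 and STC1 in MKN7 cells, and INHBB of NCI-N87 cells lies above 1 at 24 h (2.13 and 1.89), while the values of Hs746T cells lie between -0.28 and 0.34.

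Differences of the afatinib effect between lines were tested as interactions over all libraries. At 24 h the effect on ESM1 was lower in MKN7 than in MKN1 cells by a log2 difference of -2.98 (SE 0.80, adjusted p = 0.00917), and that on STC1 by -2.44 (SE 0.53, adjusted p = 0.000787). The effect on INHBB was higher in NCI-N87 than in MKN7 cells by 2.02 (SE 0.56, adjusted p = 0.00387), and higher at 24 h than at 4 h in NCI-N87 cells by 1.85 (SE 0.59, adjusted p = 0.0122). None of the 4 passed without replicate 3, with -1.35 and -1.86 for ESM1 and STC1 and 1.87 and 1.43 for INHBB, and ESM1 did not pass without replicate 1 either (-3.47, adjusted p = 0.0864). All genes gave 9.64% for NCI-N87 minus MKN7, 3.60% for MKN7 minus MKN1 and 1.34% for Hs746T minus MKN1 at 24 h. At 4 h these were 0.473%, 0.473% and 0.245%, with 0 members called and 1, 3 and 1 at an unadjusted p below 0.05. For 24 h minus 4 h they were 0.298% in MKN1, 3.08% in MKN7 and 12.2% in NCI-N87 cells, where 0 members were called in MKN1 and MKN7, with 0 and 2 at an unadjusted p below 0.05. For Hs746T minus MKN1 at 24 h 0 members were called and 2 had an unadjusted p below 0.05. VEGFA fell more at 24 h than at 4 h in MKN7 (-0.73, adjusted p = 0.00832) and in NCI-N87 cells (-0.77, adjusted p = 0.00204).

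The effect of afatinib on PTHLH differed between MKN1 cells and MKN7 or Hs746T cells only in some fits. At 4 h its afatinib effect was higher in MKN7 than in MKN1 cells by 1.89 (adjusted p = 0.0988) and higher in Hs746T than in MKN1 cells by 1.86 (adjusted p = 0.122). With the replicate number as a block these were 1.90 (adjusted p = 1.1e-08) and 1.85 (adjusted p = 3.09e-11), and at 24 h the blocked values were 1.18 (adjusted p = 0.000316) and 1.23 (adjusted p = 3.68e-06) against 1.2 and 1.19 without it (adjusted p = 0.265 and 0.25). Without replicate 1 all 4 differences passed too, with 2.09 and 1.79 at 4 h and 1.4 and 1.44 at 24 h. The block added calls for other members. At 4 h these were INHBB in NCI-N87 minus MKN7 (1.78, adjusted p = 5.3e-05; 2.56 without replicate 1), STC1 (-1.18) and INHBB (-1.15) in MKN7 minus MKN1, and ESM1 in Hs746T minus MKN1 (1.03, adjusted p = 0.0496). At 24 h STC2 in NCI-N87 minus MKN7 (-1.22, adjusted p = 0.0219) was added, and INHBB for 24 h minus 4 h in MKN7 cells (1.59, adjusted p = 2.84e-05, and 2.37 without replicate 1). With the block, 1.32%, 1.36% and 1.72% of all genes were regulated in the 3 differences between lines at 4 h, in this order. The shares were 12.1% for NCI-N87 minus MKN7 at 24 h and 5.37% for 24 h minus 4 h in MKN7 cells.

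Related genes were counted from lists that were chosen with earlier results known. Of 15 genes known as targets of MAP kinase signalling, 14 were tested in each line but Hs746T, and all 14 fell after afatinib at 4 h and at 24 h in these 3 lines (adjusted p below 0.05), with median log2FC values from -1.67 to -2.73, where the median of all genes tested lay between -0.05 and 0.04 in every list comparison given here. Over all genes 2.41% to 31% fell by the same rule in these comparisons. All 14 tested in MKN1 cells rose in EGF + Cet against Cet cells at both times (medians 2.12 and 1.68), where 5.95% and 22.6% of all genes did. DUSP6, a phosphatase that switches off ERK, fell after afatinib at 4 h, with log2FC values of -4.77 in NCI-N87, -4.01 in MKN7 and -3.36 in MKN1 cells. In Hs746T cells 0 of the 15 passed after afatinib at either time, and with the replicate block 3 rose and 1 fell at 4 h and 1 fell at 24 h.

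At 24 h many genes passed this rule after afatinib. In either direction these were 62.5% of all genes in NCI-N87, 51.6% in MKN7 and 25.6% in MKN1 cells. The counts of the other lists, rises and falls together, are to be read against these shares. Among 9 genes of the other VEGF ligands and their receptors, 5 to 8 were tested per line. After 24 h afatinib, 3 of the 5 tested fell in MKN7 cells, the co-receptors NRP1 (-1.66) and NRP2 (-1.07) and the ligand PGF (-1.44). This share is near that of all genes passing in either direction, but above that of all genes that fell. In NCI-N87 cells NRP1 (-2.49) and NRP2 (-1.25) fell and VEGFD rose (1.17). In MKN1 cells the receptor FLT1 fell (-1.56), and FLT1 (1.62) and the lymphatic ligand VEGFC (1.29) rose and FLT4 fell (-1.49) in EGF + Cet against Cet cells at 24 h. KDR, the main signalling receptor of VEGFA, had untreated means of at most 0.0575 CPM. Of the parathyroid hormone list, PTH1R, the receptor of PTHLH, rose in MKN1 cells after 24 h afatinib (1.5, adjusted p = 0.00016, not passed without replicate 3) and fell in EGF + Cet against Cet cells (-1.88, adjusted p = 4.84e-06), at an untreated mean of 0.331 CPM. The other tested genes of that list did not pass in MKN1 cells, and PTH2R rose in NCI-N87 cells (1.54).

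Of 14 genes for other activin and inhibin subunits, receptors, antagonists and SMAD proteins, 5 rose and 4 fell among 13 tested in NCI-N87 cells given afatinib for 24 h, which is near the share of all genes, and the rises numbered 3 without replicate 1 or 2 and 8 by library size alone. The subunit genes INHA (1.84), INHBE (1.41) and INHBC (1.29) had the largest rises. In MKN7 cells 3 rose, with BAMBI (1.56) and INHA (1.10) above the fold limit, and 1 fell, and in MKN1 cells ACVR1C (1.13) alone passed. With the replicate block these counts were 5 and 2 in MKN7 and 2 and 3 in MKN1 cells. FST, which codes for the activin antagonist follistatin, rose by 1.34 (adjusted p = 0.0272) in EGF + Cet against Cet cells at 4 h, a call lost without replicate 1 or 3 and in a fit of only the compared groups. Of 16 hypoxia target genes, 15 were tested in each of these lines, and after 24 h afatinib 9 fell and 3 rose in NCI-N87, 9 fell and 0 rose in MKN7 and 4 fell and 1 rose in MKN1 cells. Counted in both directions, the shares in MKN7 and MKN1 cells are near those of all genes. The falls alone in NCI-N87 and MKN7 cells are larger shares than those of all genes that fell. The falls ranged from 5 (without replicate 1) to 12 (with the block) in MKN7 and from 0 (without replicate 3) to 4 in MKN1 cells. The largest falls in NCI-N87 cells were those of HK2 (-3.00), AK4 (-2.22) and LDHA (-2.03), which code for enzymes of glucose and nucleotide metabolism. Of the 10 amino acid response genes, with which STC2 is known to be induced, 5 fell and 0 rose at 24 h in afatinib-treated NCI-N87 cells. The falls were led by SLC7A11 (-1.70), PSAT1 (-1.66) and TRIB3 (-1.66). This is a smaller share than that of all genes passing in either direction, but a larger one than that of all genes that fell. The direction was the opposite at 4 h, when 3 genes of this list rose and 0 fell in NCI-N87 cells (6 and 0 with the block). At that time 2 rose and 1 fell in MKN7 cells, and 0 passed in MKN1 cells. At 24 h, 2 rose and 3 fell in MKN7 cells, and 0 rose and 2 fell in MKN1 cells. Of the 11 angiopoietin-related genes 5 were listed at 0 in all libraries, and in NCI-N87 cells 2 of 5 tested rose, ANGPT1 by 1.57, and 1 when any replicate was left out. After afatinib in Hs746T cells 0 genes of any of these lists passed, as did 0% of all genes. With the block, 18.6% of all genes passed there at 4 h, with 4 amino acid response genes up and 1 down, 3 hypoxia genes up and 1 down, 1 activin gene up and 4 down, 1 VEGF gene each way and 1 parathyroid hormone gene up. At 24 h 0.712% passed, with 3 amino acid response genes up and 1 activin and 1 VEGF gene down. Genes of the marker lists also passed after 24 h afatinib in NCI-N87, MKN7 and MKN1 cells. Counted in both directions, the epithelial shares lay above those of all genes and the endothelial shares below them. Of the 8 epithelial markers 5 fell in MKN7, 4 fell and 2 rose in NCI-N87 and 1 fell and 2 rose in MKN1 cells. Of the endothelial markers 2 of 5 tested rose in MKN7, 2 rose and 1 fell of 6 in NCI-N87 and 1 of 7 rose in MKN1 cells. Without replicate 3, 0 genes of either list passed in MKN1 cells. The epithelial falls in MKN7 cells numbered 3 by library size alone, its endothelial rises 0 to 1 with a replicate left out, and the epithelial rises in NCI-N87 cells 0 without replicate 3. The part of these marker changes in the values of the members was not tested.

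Over the 14 conditions of MKN1 cells the genes with levels most like ESM1, by Pearson's r of the mean log2 CPM among 12439 genes, were FBN2 (0.987), LAMA3 (0.986), CHST2 (0.982), GHR (0.980) and ADAM19 (0.979). For PTHLH they were CD55 (0.997), PXN (0.995), HS3ST3B1 (0.995), ALAS1 (0.994) and MOSMO (0.992). ESM1 and PTHLH had an r of 0.937 with each other. These values share the libraries, treatments and times and are given as a description with no test.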

How the data were processed

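Messenger RNA was measured in 4 cell lines, with 3 libraries for each of 44 conditions. The authors captured polyadenylated RNA, prepared strand-specific libraries and sequenced both fragment ends. The deposited values are unnormalized counts for each Ensembl identifier. The submitters' processing notes name Trim Galore, STAR and hg38; versions and counting options are not given in the sources used here. Identifiers were matched to GENCODE annotation of GRCh38, which lacks 8404 of 65217 identifiers (0.0422% of counts). Protein-coding genes held 98.3% of counts, and 0 pairs of replicates were identical. Deposited totals of 25832557 to 69434151 counts set the precision of low levels, so that 3 counts are 0.0432 to 0.116 CPM.

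All tests used edgeR 4.0.16 under R 4.3.3 (TMM, filterByExpr asking for 10 counts and a total of 15, glmQLFit and glmQLFTest, Benjamini-Hochberg adjustment over all genes tested). Each line was fitted with 1 mean per treatment and time (19815 genes tested for MKN1, 18667 for Hs746T, 18483 for MKN7 and 19078 for NCI-N87), and all lines together (22832 genes) for interactions and untreated levels. Intervals cover 95%. Log2 CPM used a prior count of 2. The scripts were tested on simulated data. Alternatives were library size alone, DESeq2 1.42.0, a filter of 10 or more counts throughout or none, only the compared groups, a block for the replicate number within line and time, and omission of 1 replicate at a time. Deviations of same-numbered replicates from their group means had an r above 0.1 in all 3 pairs in 39 of 40 comparisons (lowest r -0.01, highest 0.74). The numbers, taken from the sample titles, were therefore read as pairing the samples. The p-values given first leave this pairing out. The blocked value stands beside each result whose call of regulation it changes. The block pairs treatments of the same line and time only, not times or lines. Results under the fold limit can also pass or miss with the block. In MKN7 cells at 4 h, for example, 4 members fell after Afa at an adjusted p below 0.05 with it and 3 without. Beyond the label of biological triplicates nothing says how the replicates were grown, and p-values measure only the spread between these samples.

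Members and lists were chosen with earlier results of these data known. Named list genes are at most 3 per list and comparison, those with the largest change among the regulated ones, and receptors, antagonists and DUSP6 fixed by name. The counts of 1 gene list are not reported here. Genes with like patterns are the 5 with the highest r among genes with a mean log2 CPM above 1. Promoter sequences are from RefSeq (GRCh38.p14), and 6 of the 8 members had one that was used. Figures were drawn with Python 3.11.15, pandas 2.3.3 and matplotlib 3.10.9.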

Additional observations from a re-analysis of the deposited data

Results flagged for a closer look

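Differences of the afatinib effect (log2FC of Afa against untreated) between lines or times passed the test of the difference itself for 4 results of 3 members. The effect on INHBB was higher in NCI-N87 than in MKN7 cells at 24 h by 2.02 (adjusted p = 0.00387), and higher at 24 h than at 4 h in NCI-N87 cells by 1.85 (adjusted p = 0.0122). Both rest on the NCI-N87 libraries with afatinib at 24 h, from which the study drew up a list that holds INHBB. The effect on ESM1 was lower in MKN7 than in MKN1 cells at 24 h by a log2 difference of -2.98 (adjusted p = 0.00917), and that on STC1 by -2.44 (adjusted p = 0.000787). In MKN7 cells untreated replicate 3 at 24 h had 12.5 CPM of ESM1 and 67.2 CPM of STC1, the highest of its group. Without replicate 3 the values were 1.87 and 1.43 for INHBB, -1.35 for ESM1 and -1.86 for STC1, and none passed in edgeR's test. The part of that replicate in the differences was not tested further.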

How the results depend on the processing

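No member's log2FC changed sign with a call under any alternative. When only the library size was scaled, the median of all genes moved by -0.2 to 0.28 on the log2 scale, and the regulated members numbered 1 instead of 3 in EGF + Cet against Cet (MKN1, 24 h), 2 instead of 3 in Afa against untreated (MKN7, 24 h), 1 instead of 2 in Tra + Afa against Tra (MKN7, 24 h), 0 instead of 1 in Afa against untreated (NCI-N87, 4 h) and 1 instead of 3 in Tra + Afa against Tra (NCI-N87, 24 h). With at least 10 counts in every library all 6 members were still tested in MKN1 and MKN7 cells, but only 2 in NCI-N87 cells. VEGFA was then under the fold limit in EGF + Cet against Cet in MKN1 (0.99) and in Tra + Afa against Tra in MKN7 cells (-0.97) at 24 h, which left 1 regulated in the latter. In NCI-N87 cells 1 was regulated in each 24 h and 0 in both 4 h afatinib comparisons. A fit of only the compared groups gave 0 in Tra + Afa against Tra (NCI-N87, 4 h). Low levels limit ESM1, STC1 and INHBB in NCI-N87 cells. DESeq2 changed 0 of 211 member calls.

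With the replicate number as a block, 17 member calls were gained and 1 lost of 306. The blocked count was 1 instead of 0 for 24 h against 4 h in MKN7, NCI-N87 and Hs746T cells. In these comparisons, and between untreated lines, the block pairs no libraries, so its p-values leave out the spread between replicates. The blocked count was 1 for NCI-N87 minus MKN7, 3 for MKN7 minus MKN1 and 2 for Hs746T minus MKN1 at 4 h. At 24 h it was 2 instead of 1 for NCI-N87 minus MKN7 and 1 for Hs746T minus MKN1, and it was 1 for 24 h minus 4 h in MKN7 cells. The block raised the share of all genes regulated in each of these comparisons as well. In the same order the blocked shares were 2.78%, 0.356%, 0.771%, 1.32%, 1.36%, 1.72%, 12.1%, 3.08% and 5.37%. Also gained were ESM1 in EGF + Cet against Cet in MKN1 (1.51) and in Tra + Afa against Tra in MKN7 (-1.6) at 24 h, PTHLH in MKN7 minus MKN1 at 24 h (1.18) and, between untreated lines, STC2 (1.22) and INHBB (1.04) in MKN7 against NCI-N87, and STC1 in MKN7 against Hs746T was lost (-0.97). The block changed no other member call. Counts of related genes moved too, as given beside them.

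Leaving out 1 replicate at a time gave counts of 0 to 1 for Cet and Afa against untreated in MKN1 at 24 h, 1 to 2 for EGF + Cet against Cet at 4 h and for 24 h against 4 h in MKN1, 2 to 3 for EGF + Cet against Cet at 24 h, 1 to 2 for both 4 h and 1 to 3 and 0 to 3 for the 24 h afatinib comparisons of MKN7, 0 to 1 for 24 h against 4 h in MKN7, 0 to 1 at 4 h and 1 to 2 and 0 to 3 at 24 h for those of NCI-N87, 0 to 2 for MKN7 minus MKN1 at 24 h and 0 to 1 for the other interactions whose count moved. Without replicate 3, 17 member calls were lost, without replicate 2, 10, and without replicate 1, 8. The cause was not tested.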
